A study of Danio rerio with 18 samples.

Results

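The genes described here are of carrier families that mostly move amino acids and short peptides across cell membranes, in the digestive organs of zebrafish larvae before and after a meal. They were taken by name from the authors' deposited table: symbols of the solute carrier families SLC1, SLC3, SLC6, SLC7, SLC15, SLC36, SLC38 and SLC43 with an average log2 CPM (CPM, read counts scaled to library size, over all samples) of at least 0. For each symbol the transcript with the highest average stood for the gene. The name matched 71 symbols, of which 48 passed the level filter, among 12828 genes that passed it in all. Of the 48 members 47 are carriers or their chains, and slc7a6os is named for lying opposite slc7a6 and is not one. Some of the 47 carry other substances, such as creatine, neurotransmitters or, in human, nucleobases, as given below.

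The study used AB wild-type larvae at 6.5 days post fertilization, and its 18 samples form 6 groups of 3, each sample being the pooled intestine, liver and pancreas of 10 larvae. One cohort received a high-fat meal of 5% egg yolk emulsion and the other a low-fat meal of 10% egg white. Each cohort has its own unfed larvae and larvae taken 1 h and 4 h after the meal, and the series' design text says that replicates were prepared independently from pairwise crosses. The table gives 4 comparisons of fed with unfed larvae and no values of single samples, so each member is shown by its log2 fold change, where a positive value means more RNA after the meal. A call is an adjusted p under 0.05 in the authors' deposited table, over all of its 56754 rows. Intervals are 95% intervals computed here from the standard error that the authors' fold changes and p-values imply. That error follows the expression level and is nearly the same for all genes of one level, between 0.357 and 0.398 for the members. It does not hold each gene's own spread between samples. Because it was taken from the p-values behind the calls, the calls largely share this limit. Depth per sample is unknown.

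Dietary protein is cut in the gut lumen to free amino acids and to peptides of a few residues. At the brush border of the enterocyte, peptides enter with protons through SLC15 carriers, and free amino acids enter through sodium-coupled and exchanging carriers such as those of SLC6 and the SLC3 and SLC7 heterodimers. At the basolateral side, exchangers built on the heavy chain 4F2hc and uniporters of SLC43 pass amino acids on to the blood, and SLC38 carriers take them up in liver and other organs. Both meals bring egg protein. Because whole organs were pooled, fewer cells of a type and less RNA per cell cannot be told apart in any value below.

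Few carriers were called, and all calls at 1 h were rises. In the high-fat cohort 2 of 48 members, or 4.17%, were called at 1 h in the authors' deposited table, against 3.73% of all genes. Both were higher, where 1.96% of all genes were, and 0 were lower, where 1.77% were. At an unadjusted p under 0.05 by edgeR stood 5 members in the authors' deposited table, 4 higher and 1 lower, or 10.4%, against 14.5% of all genes. At 4 h in that cohort the same number was called in the authors' deposited table, against 1.36% of all genes: 1 was higher, against 0.741%, and 1 was lower, against 0.616%. Here 5 members had an unadjusted p under 0.05 in the authors' deposited table, 2 higher and 3 lower, or 10.4%, against 7.77% of all genes. In the low-fat cohort 3 members, or 6.25%, were called at 1 h in the authors' deposited table, against 4.06% of all genes. All 3 were higher, against 2.72% of all genes, and 0 were lower, against 1.34%. Unadjusted p-values under 0.05 by edgeR were those of 11 members in the authors' deposited table, 9 higher and 2 lower, or 22.9%, against 14.2% of all genes. At 4 h in the low-fat cohort 0 members were called by edgeR in the authors' deposited table, against 0.444% of all genes, of which 0.437% were higher and 0.0078% lower, and 1 member, or 2.08%, had an unadjusted p under 0.05, against 2.55% of all genes. Counts this small say nothing about the carriers as a set. The called carriers were slc6a19a, slc15a1a, slc43a3b, slc38a5a, slc6a8 and slc6a13. Medians over the members in the authors' deposited table were 0.0051 at 1 h and 0.0048 at 4 h for the high-fat meal, and 0.22 and -0.04 at these times for the low-fat meal. The corresponding medians of all genes in the authors' deposited table were -0.01, 0.01, 0.02 and 0.02.

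**Figure D1:**
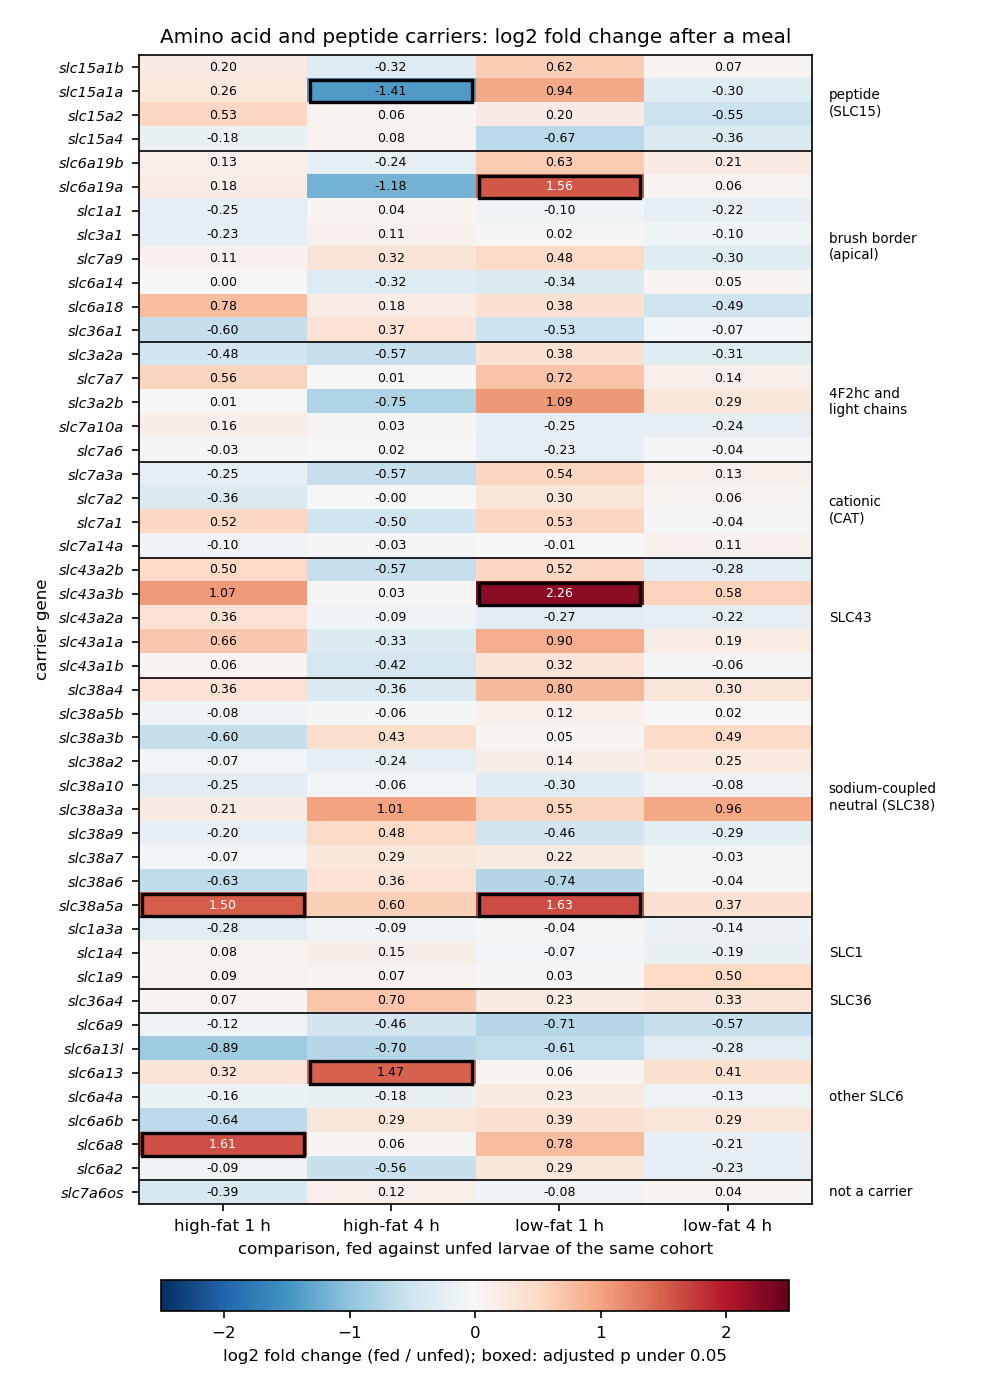
Log2 fold change of each of the 48 members (rows, grouped by role) in the 4 comparisons with unfed larvae (columns), with values printed and calls at an adjusted p under 0.05 boxed. There are 2 boxes at 1 h and 2 at 4 h after the high-fat meal, 3 at 1 h after the low-fat meal and 0 at 4 h.

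Among the 4 peptide carriers slc15a1a, one of a pair of genes for the intestinal peptide carrier PepT1, was called, and it was lower in larvae 4 h past the high-fat meal. It fell by 1.41 there (adjusted p = 0.017 in the authors' deposited table), a 2.65-fold decrease with an interval of -2.11 to -0.71. That value lay at percentile 0.444 of the fold changes of all genes. In larvae 1 h past that meal slc15a1a had 0.26 (adjusted p = 1) in the authors' deposited table. After the low-fat meal its values in the authors' deposited table were 0.94 at 1 h (adjusted p = 0.16) and -0.30 at 4 h (adjusted p = 1). Its transcript ENSDART00000133112 lies on chromosome 9 from 1014449 to 1035656 of Zv9, and its average was 6.70 on the log2 CPM scale.

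The other PepT1 gene, slc15a1b, drew the most reads of all members, with an average of 9.61 log2 CPM or 780 CPM in the authors' deposited table. It was not called at either time after either meal. Its log2 fold changes in the authors' deposited table were 0.20 at 1 h and -0.32 at 4 h for the high-fat meal, and 0.62 and 0.07 for the low-fat meal. The interval of the largest of these, 0.62, ran from -0.08 to 1.33. For slc15a2, the PepT2 gene of renal and other epithelia, the authors' deposited table gave 0.53, 0.06, 0.20 and -0.55, in the order of high-fat 1 h, high-fat 4 h, low-fat 1 h and low-fat 4 h. In the same order slc15a4, which codes for a lysosomal carrier of peptides and histidine in mammals, had -0.18, 0.08, -0.67 and -0.36 in the authors' deposited table. Neither passed the test in any of the 4 comparisons.

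Of 8 apical carriers of the brush border only slc6a19a was called, and it rose 1 h past the low-fat meal. It codes for a copy of B0AT1, the main sodium-coupled carrier of neutral amino acids in the gut of mammals. The authors' deposited table gave 1.56 there (adjusted p = 0.0018), a 2.95-fold increase with an interval of 0.86 to 2.26, at percentile 98.67 of all genes. By 4 h past the low-fat meal slc6a19a stood at 0.06 (adjusted p = 1) in the authors' deposited table. After the high-fat meal it had 0.18 at 1 h (adjusted p = 1) and -1.18 at 4 h (adjusted p = 0.082) in the authors' deposited table, the second of which missed the threshold with an interval of -1.88 to -0.48. Its transcript ENSDART00000025146 lies on chromosome 19 from 642500 to 656417, next to slc6a18, and its average was 7.89 log2 CPM. RefSeq on assembly GRCz12tu names this gene slc6a19a.1 and places a further copy, slc6a19a.2, on the same chromosome, so reads of the copies may be joined in this value.

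The remaining apical carriers passed in none of the 4 comparisons. The second B0AT1 gene, slc6a19b, had an average of 8.52 log2 CPM and fold changes of 0.13, -0.24, 0.63 and 0.21 in the authors' deposited table (order as above). For slc3a1 and slc7a9, the heavy and light chain of the exchanger that takes up cystine and cationic amino acids, the authors' deposited table gave values between -0.23 and 0.11 and between -0.30 and 0.48. The glutamate carrier gene slc1a1 (EAAT3) ranged from -0.25 to 0.04 in the authors' deposited table. For slc36a1, the proton-coupled carrier PAT1 of mammals, the authors' deposited table listed -0.60, 0.37, -0.53 and -0.07. The slc6a18 gene beside slc6a19a had 0.78 at 1 h after the high-fat meal (adjusted p = 0.36) and -0.49 at 4 h after the low-fat meal (adjusted p = 1) in the authors' deposited table. Values of slc6a14, a carrier of neutral and cationic amino acids, lay between -0.34 and 0.05 in the authors' deposited table.

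The heavy chain 4F2hc and its light chains showed no call among 5 genes. Both genes of the heavy chain are members, and the authors' deposited table gave slc3a2b 1.09 at 1 h after the low-fat meal (adjusted p = 0.074) and -0.75 at 4 h after the high-fat meal (adjusted p = 0.58). The other heavy chain gene, slc3a2a, had 0.38 and -0.57 in these comparisons of the authors' deposited table (adjusted p-values of 0.93 and 0.895). Of the light chains, slc7a7, which codes for the y+LAT1 chain that exports cationic amino acids, had 0.56, 0.01, 0.72 and 0.14 in the authors' deposited table. The values of slc7a10a and slc7a6 lay between -0.25 and 0.16 in the authors' deposited table. The light chain genes slc7a5, slc7a8a and slc7a8b were not among the 71 symbols that the name matched. The 4 genes of the cationic amino acid carrier group, slc7a1, slc7a2, slc7a3a and slc7a14a, ranged from -0.57 to 0.54 over the comparisons of the authors' deposited table, with 0 called.

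The SLC43 genes held the member with the largest rise. The authors' deposited table had slc43a3b higher by 2.26 at 1 h after the low-fat meal (adjusted p = 5.14e-07), a 4.78-fold increase with an interval of 1.55 to 2.96, at percentile 99.52 of all genes. In human, the SLC43A3 protein carries purine nucleobases and not amino acids. With the high-fat meal slc43a3b had, at 1 h, 1.07 in the authors' deposited table (adjusted p = 0.087), which missed the threshold. At 4 h it stood at 0.03 after the high-fat and 0.58 after the low-fat meal in the authors' deposited table (adjusted p = 1 for both). Its transcript ENSDART00000080712 lies on chromosome 14 from 14969380 to 14994635, with an average of 5.41 log2 CPM.

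The other SLC43 genes are relatives of the mammalian uniporters LAT3 and LAT4 of branched-chain and aromatic amino acids. LAT4 is the product of SLC43A2, and slc43a2b was the third most read member, with 8.80 log2 CPM in the authors' deposited table. Its fold changes in the authors' deposited table were 0.50, -0.57, 0.52 and -0.28, with adjusted p-values between 0.72 and 1. The LAT3 relative slc43a1a had 0.66, -0.33, 0.90 and 0.19 in the authors' deposited table, and its value of 0.90 had an adjusted p of 0.21. In larvae 1 h past the high-fat meal all 5 SLC43 genes lay above 0 in the authors' deposited table, with a median of 0.50 and 0 calls. By 4 h 1 of the 5 lay above 0, and the median was -0.33 in the authors' deposited table. Of all genes 48.8% and 51.2% lay above 0 at these times. With the low-fat meal 4 of the 5 lay above 0 at 1 h and 2 at 4 h, against 52.4% and 53.6% of all genes.

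Of 10 sodium-coupled carriers of SLC38, slc38a5a was called, with a call at 1 h for each meal. In mammals SLC38A5 is a glutamine carrier that exchanges sodium and protons. The authors' deposited table gave slc38a5a 1.505 at 1 h after the high-fat meal (adjusted p = 0.0054) and 1.63 at 1 h after the low-fat meal (adjusted p = 0.0013). These are 2.84-fold and 3.104-fold increases, with intervals of 0.78 to 2.23 and 0.91 to 2.35. At 4 h the gene had 0.60 and 0.37 in the authors' deposited table (adjusted p-values of 0.88 and 1). Its average was 2.298 log2 CPM or 4.92 CPM, and its transcript ENSDART00000062385 lies on chromosome 8 from 26468724 to 26478746. Its 2 transcripts above the level filter differed by at most 0.04 in any comparison of the authors' deposited table.

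The most read SLC38 gene, slc38a4 at 8.87 log2 CPM, codes for a carrier typical of the mammalian liver. It had 0.36, -0.36, 0.80 and 0.30 in the authors' deposited table, with adjusted p-values of 0.305 or more. Both copies of slc38a3, the glutamine carrier of liver and kidney in mammals, stood above 0 at 4 h. The authors' deposited table gave slc38a3a 1.01 at 4 h after the high-fat meal (adjusted p = 0.22) and 0.96 at 4 h after the low-fat meal (adjusted p = 0.66). For slc38a3b the values at 4 h were 0.43 and 0.49 in the authors' deposited table (adjusted p = 1 for both), after -0.60 and 0.05 at 1 h. The slc38a2 gene, whose mammalian product SNAT2 is known for its rise when amino acids run short, had values between -0.24 and 0.25 in the authors' deposited table. For slc38a9, a lysosomal arginine sensor of mTORC1, the authors' deposited table listed -0.20, 0.48, -0.46 and -0.29. Low values at 1 h were those of slc38a6, -0.63 and -0.74 after the high-fat and the low-fat meal in the authors' deposited table (adjusted p-values of 0.58 and 0.40).

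Among the 7 other SLC6 genes, which include carriers of creatine, taurine, glycine and neurotransmitters, slc6a8 and slc6a13 were called. The authors' deposited table had the creatine carrier gene slc6a8 higher by 1.61 at 1 h after the high-fat meal (adjusted p = 0.0021), a 3.06-fold increase with an interval of 0.89 to 2.33. With the low-fat meal slc6a8 had, at 1 h, 0.78 (adjusted p = 0.35) in the authors' deposited table, and at 4 h it had 0.06 and -0.21 (adjusted p = 1 for both). Its transcript ENSDART00000037922 lies on chromosome 8 from 9596956 to 9663791, and its average was 2.49 log2 CPM.

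The gene listed as slc6a13 rose 4 h past the high-fat meal: the authors' deposited table gave it 1.47 (adjusted p = 0.010), a 2.78-fold increase with an interval of 0.77 to 2.18. In the other 3 comparisons the authors' deposited table gave slc6a13 values of 0.32, 0.06 and 0.41 (adjusted p = 1 for each). Its transcript ENSDART00000132484 lies on chromosome 6 from 41049773 to 41069719, and slc6a13l follows 5.3 kb further on. RefSeq lists both names as older ones, of slc6a22.1 and slc6a22.2 on chromosome 6, and uses slc6a13 for a gene on chromosome 25. The neighbour slc6a13l had -0.70 at 4 h after the high-fat meal in the authors' deposited table (adjusted p = 0.67), opposite in sign to slc6a13. In larvae 1 h past the high-fat meal slc6a13l had -0.89, the lowest value of any member there, in the authors' deposited table (adjusted p = 0.22).

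The remaining members passed in none of the 4 comparisons. For slc6a9, the glycine carrier GlyT1, the authors' deposited table gave -0.12, -0.46, -0.71 and -0.57. The taurine carrier gene slc6a6b had -0.64 at 1 h after the high-fat meal in the authors' deposited table (adjusted p = 0.56). In the other comparisons of the authors' deposited table it lay between 0.29 and 0.39. Serotonin and noradrenaline carriers, slc6a4a and slc6a2, lay between -0.56 and 0.29 in the authors' deposited table. The 3 members of SLC1 besides slc1a1, which are slc1a3a, slc1a4 and slc1a9, lay between -0.28 and 0.50, and slc36a4 had 0.70 at 4 h after the high-fat meal (adjusted p = 0.67), in the authors' deposited table. The non-carrier slc7a6os had values between -0.39 and 0.12 in the authors' deposited table.

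**Figure D2:**
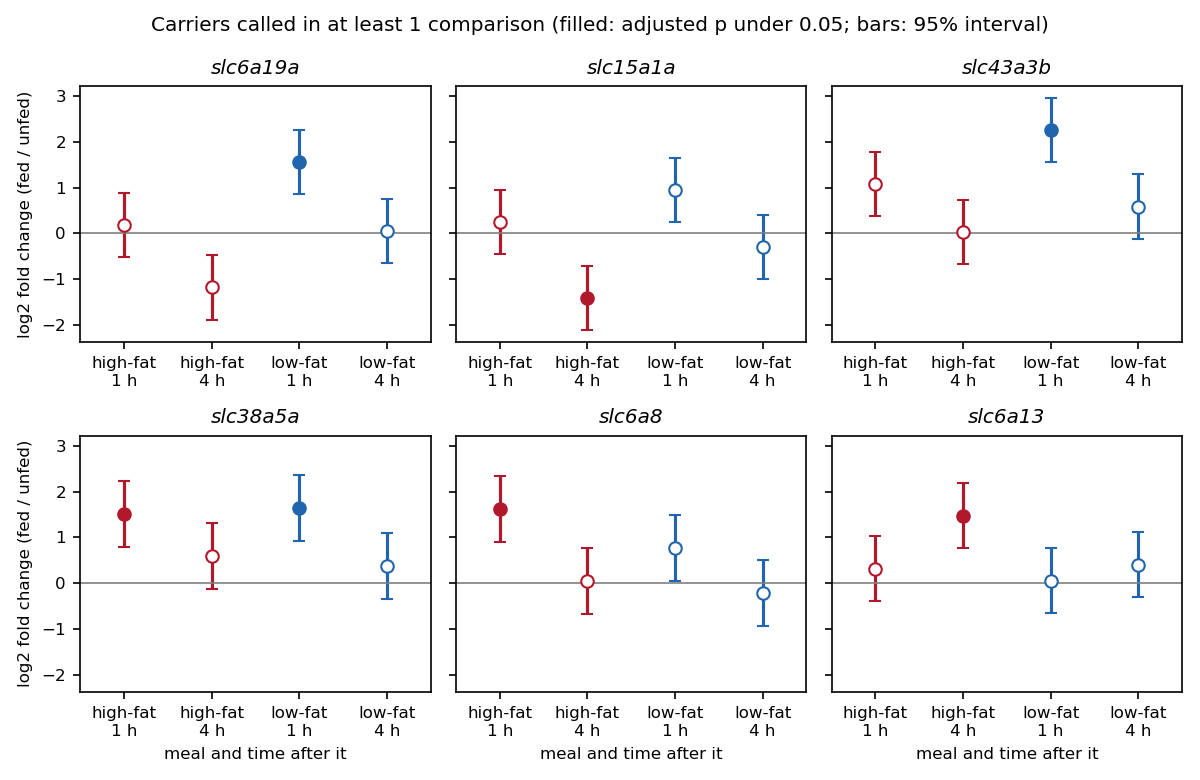
Log2 fold change against unfed larvae (vertical axis) of the 6 carriers called in at least 1 comparison, by meal and time, with 95% intervals from the implied standard error and filled points for an adjusted p under 0.05. The values at 4 h lie below those at 1 h after the same meal for slc6a19a, slc15a1a, slc43a3b, slc38a5a and slc6a8, and above them for slc6a13.

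The 4 h and 1 h values of a meal share their unfed larvae, which cancel in the difference, and that difference was tested for all 12828 genes by a normal approximation that uses the implied errors. No unfed group is labelled with either time. A change from 1 h to 4 h after the meal thus cannot be told apart from one with the hour of sampling. For the high-fat meal 5 members, or 10.4%, passed, against 6.5% of all genes. Of these 4 were lower at 4 h than at 1 h, against 3.24% of all genes, and 1 was higher, against 3.27%. The largest drop was that of slc15a1a, -1.66 with an interval of -2.37 to -0.96 (adjusted p = 0.000205). For slc6a8 the difference was -1.56 (adjusted p = 0.0010), and for slc6a19a it was -1.36 (adjusted p = 0.0047). The LAT4 relative slc43a2b had -1.08 (adjusted p = 0.042), although it was called at neither time against unfed larvae. The gene that rose between 1 h and 4 h was slc6a13, by 1.16 with an interval of 0.45 to 1.87 (adjusted p = 0.025). The difference of slc43a3b, -1.04, missed the threshold (adjusted p = 0.054).

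For the low-fat meal 4 members, or 8.33%, passed, against 2.02% of all genes. All 4 were lower at 4 h than at 1 h, against 1.4% of all genes, and 0 were higher, against 0.616%. They were slc43a3b with -1.67 (adjusted p = 5.6e-04), slc6a19a with -1.50 (adjusted p = 0.0035), slc38a5a with -1.26 (adjusted p = 0.035) and slc15a1a with -1.25 (adjusted p = 0.031). The interval of slc6a19a ran from -2.20 to -0.80 and that of slc15a1a from -1.95 to -0.54. Thus slc6a19a and slc15a1a were lower at 4 h than at 1 h after each meal. Over all members the median difference between 4 h and 1 h was -0.06 after the high-fat and -0.12 after the low-fat meal, against 0.0022 and 0.0061 over all genes. At an unadjusted p under 0.05 stood 16 members after the high-fat meal, 10 lower and 6 higher, or 33.3%, against 16.6% of all genes. After the low-fat meal 10 members, or 20.8%, stood there, all lower. Of all 12828 genes 9.62% stood there, 693 lower and 541 higher.

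The 2 meals were not shown to differ for any member, since the difference of their responses passed for 0 of 48 at 1 h and for 0 at 4 h. Each meal went to its own cohort, so a difference between meals cannot be told apart from one between cohorts. The background at 1 h was 0.982% of all genes, 0.218% with the higher response to the high-fat meal and 0.764% with the lower. At 4 h it was 0.53%, of which 0.242% higher and 0.288% lower. Unadjusted p-values under 0.05 were found in that test for 4 members at 1 h, all lower, and for 4 at 4 h, 1 higher and 3 lower. That is 8.33% of members at each time, against 4.99% and 3.94% of all genes. At 1 h the largest difference, high-fat minus low-fat, was that of slc6a19a, -1.38 with an interval of -2.37 to -0.39 and an unadjusted p of 0.0064 (adjusted p = 0.33). That of slc43a3b was -1.18 (adjusted p = 0.62) and that of slc3a2b was -1.08 (adjusted p = 0.83). For slc38a5a, called after both meals, the difference at 1 h was -0.13 with an interval of -1.15 to 0.89. For slc6a8, called after the high-fat meal alone, it was 0.84 with an interval of -0.18 to 1.85. At 4 h slc6a19a had -1.24 (adjusted p = 0.73), slc15a1a -1.11 and slc6a13 1.07 (adjusted p = 1 for both). The half-width of such an interval is close to 1.00 for a typical member, so smaller differences between meals lie within the error of this test. Passing the adjusted threshold takes more than that, since -1.38 at 1 h and -1.24 at 4 h for slc6a19a did not pass. Differences above 1.00 can thus be missed as well, and 0 of 48 does not show that the responses to the meals are alike. Across the 48 members the values at 1 h after the 2 meals, which share no sample, had a Pearson correlation of 0.64 and a Spearman correlation of 0.60, against 0.50 and 0.53 across all genes. At 4 h these were 0.36 and 0.21, against 0.31 and 0.27. Genes of one library are not independent points, and these are descriptions.

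Zebrafish keep duplicate copies of many carriers, and 7 pairs of a and b copies are members. The copies of slc38a5 lay furthest apart at 1 h: slc38a5b had -0.08 and 0.12 after the high-fat and the low-fat meal in the authors' deposited table, where slc38a5a had the rises given above. For slc15a1 and slc6a19 the a copies had -1.41 and -1.18 at 4 h after the high-fat meal in the authors' deposited table, and the b copies -0.32 and -0.24. At 1 h after the low-fat meal slc6a19a had 1.56 and slc6a19b 0.63 in the authors' deposited table. None of the b copies of these 3 pairs was called in any of the 4 comparisons, against 3.73%, 1.36%, 4.06% and 0.444% of all genes (order as above). In each of these pairs the a copy is a called member, so they do not stand for all 7. At 1 h after the low-fat meal the a copy stood above the b copy in 5 of the 7 pairs. The others were slc3a2, with 0.38 for a and 1.09 for b, and slc43a2, with -0.27 and 0.52, in the authors' deposited table. Differences between copies were not tested. Over the 7 pairs the value of the a copy minus that of the b copy ranged from -0.49 to 1.59 at 1 h and from -1.09 to 0.66 at 4 h after the high-fat meal. After the low-fat meal it ranged from -0.79 to 1.51 at 1 h and from -0.60 to 0.47 at 4 h.

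**Figure D3:**
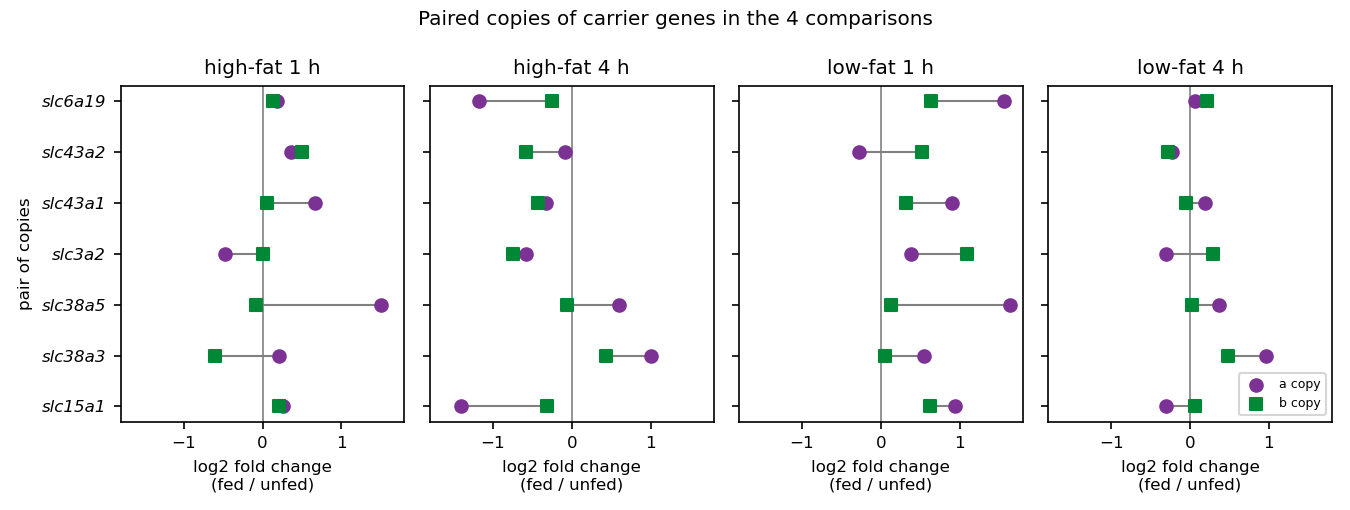
Log2 fold change against unfed larvae (horizontal axis) of the a copy (circles) and the b copy (squares) of 7 duplicated carrier genes, 1 panel per comparison. The copies of slc38a5 are far apart at 1 h after both meals, and those of slc15a1 and slc6a19 4 h past the high-fat meal.

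The members' averages ran from 0.52 to 9.61 log2 CPM, with a median of 4.05 against 2.85 for all genes. These averages count reads without dividing by transcript length, so they do not order the genes by number of RNA molecules. The 5 most read members were slc15a1b, slc38a4, slc43a2b, slc6a19b and slc6a19a. In the set of 11 members with at least 6 log2 CPM, a level chosen after the values were seen, 10 lay above 0 at 1 h after the low-fat meal in the authors' deposited table, with a median of 0.62. Of the 920 genes at that level 75.9% lay above 0 there, with a median of 0.14 in the authors' deposited table. By 4 h past the high-fat meal 1 of the 11 lay above 0, with a median of -0.46 in the authors' deposited table, against 42.0% and -0.08 for the genes of that level. In each of the other 2 comparisons of the authors' deposited table, high-fat 1 h and low-fat 4 h, 7 of the 11 lay above 0, or 63.6%, against 53.8% and 51.2% of the genes of that level. Over the 11 carriers chosen for a known place in protein absorption, whatever their level, the medians in the authors' deposited table were 0.11, -0.24, 0.52 and -0.07 (order as above).

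**Figure D4:**
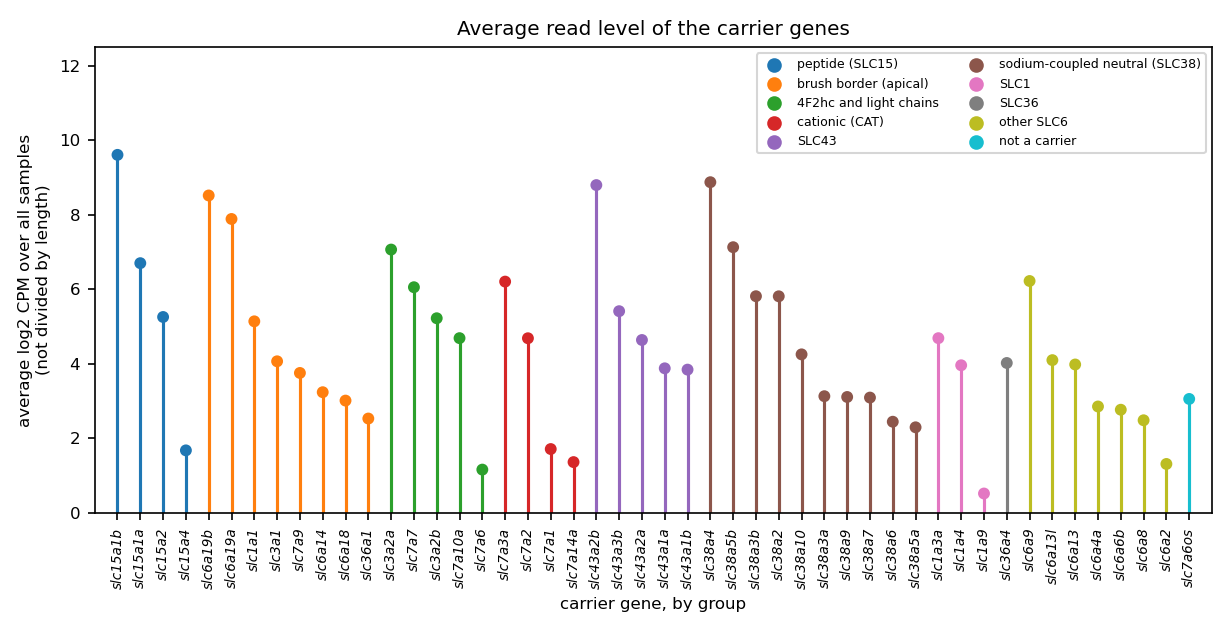
Average log2 CPM over all samples (vertical axis, not divided by length) of the 48 members, coloured and ordered by role. The tallest point is slc15a1b at 9.61 and the lowest slc1a9 at 0.52.

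**Figure D5:**
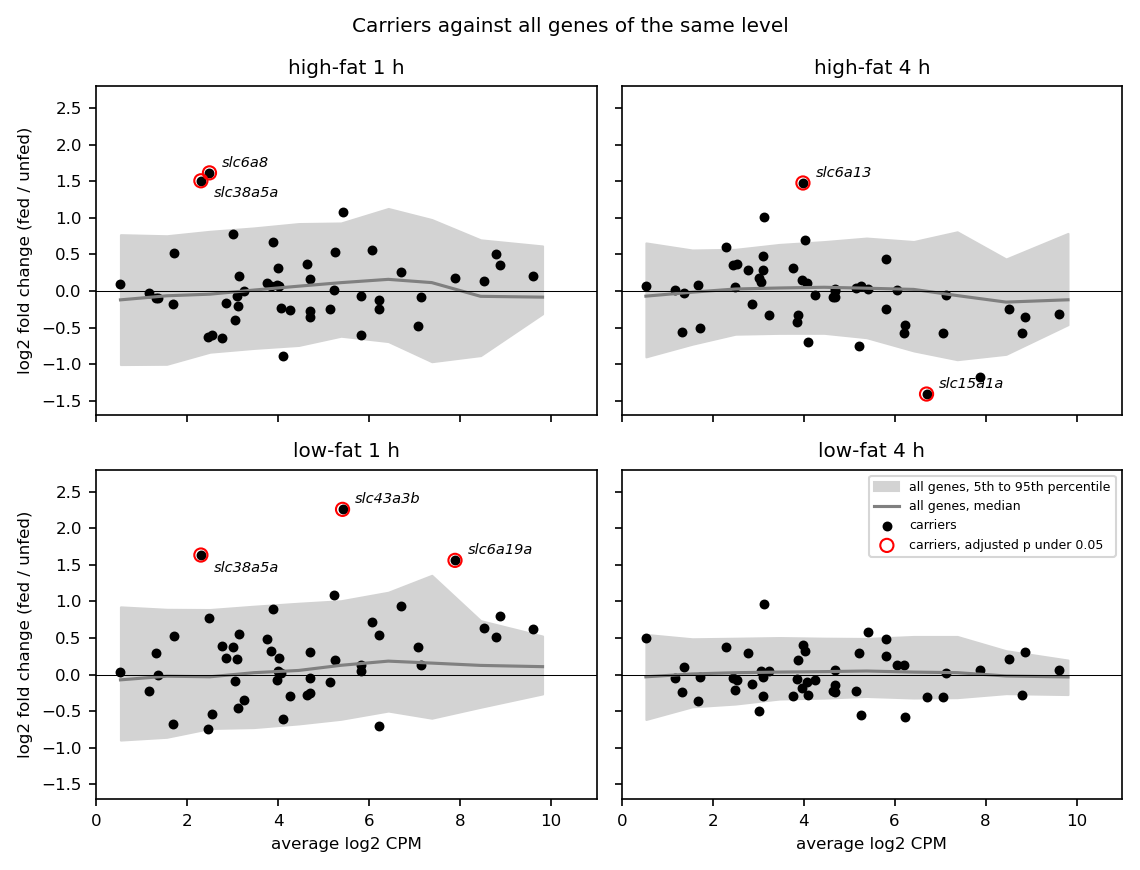
Log2 fold change against unfed larvae (vertical axis) by average log2 CPM (horizontal axis) for the members (points, calls circled), over the median and the 5th to 95th percentiles of all genes of the same level. At 1 h after the low-fat meal the most read members lie mostly above the median of all genes, and at 4 h after the high-fat meal mostly below it.

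By position the members spread over 19 chromosomes, with 9 on chromosome 7, and 7 pairs of neighbours lay within 250 kb of each other. Genes between neighbours were counted only among named genes that passed the level filter. The closest pairs with no such gene between them were slc7a6os and slc7a6, 2.4 kb apart, slc6a13 and slc6a13l, slc6a18 and slc6a19a, 6.4 kb apart, slc43a2b and slc7a1, 30.3 kb apart, and slc38a4 and slc38a2, 33.5 kb apart. The called members of these pairs, slc6a13 and slc6a19a, each had a neighbour that was not called. Of the Gene Ontology terms printed in the table, amino acid transmembrane transport was given to 10 members and to 13 genes in all, and sodium symport of neurotransmitters to 11 members and 17 genes. Several transcripts of 24 members passed the level filter. Their log2 fold changes in the authors' deposited table spanned a median of 0.05 and at most 0.33, and such transcripts may share reads. Another row of the table overlaps the position of 13 members, and without the strand used for counting, reads of overlapping genes cannot be told apart. Of the 7 members that passed any of the tests above only slc43a2b is overlapped, by rows of other symbols below 0 log2 CPM and by rows with no symbol. The rows with no symbol lie at 5.96, 5.22 and -4.88 log2 CPM, against 8.80 for slc43a2b.

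Of other genes of protein absorption, 17 peptidases and ectoenzymes were measured, most of them of the brush border; cndp2, pepd and lap3 code for cytosolic peptidases. By 4 h past the high-fat meal 3 of them fell in the authors' deposited table: ace, which codes for a peptidase that cuts angiotensin, had -1.88, mep1b, a meprin subunit, had -1.39, and tmprss15, the activator of trypsinogen, had -1.40 (adjusted p-values of 0.00016, 0.019 and 0.017). Of all genes 0.616% were called lower in that comparison. In the other comparisons 0 of 17 were called in either direction, against 3.73%, 4.06% and 0.444% of all genes at high-fat 1 h, low-fat 1 h and low-fat 4 h. The medians of this list in the authors' deposited table were 0.21 at 1 h and -0.44 at 4 h for the high-fat meal, and 0.28 and -0.03 for the low-fat meal. Of 11 genes of pancreatic digestive enzymes, which are 10 protease genes and the lipase gene cel.1, 0 were called in any of the 4 comparisons of the authors' deposited table, and the list medians lay between -0.15 and 0.06.

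Among 13 genes that keep the sodium and proton gradients of the enterocyte, at 1 h 2 rose with high-fat and 1 with low-fat food, all of them sodium and proton exchangers of the slc9a3 family. Of all genes 1.96% and 2.72% were called higher at 1 h after these meals. The authors' deposited table gave slc9a3.1 1.47 after the high-fat meal (adjusted p = 0.010) and 1.95 after the low-fat meal (adjusted p = 4.0e-05). For slc9a3.2 the authors' deposited table gave 1.35 at 1 h after the high-fat meal (adjusted p = 0.026) and 0.70 after the low-fat meal (adjusted p = 0.48). At 4 h 0 genes of this list were called, against 1.36% of all genes after the high-fat and 0.444% after the low-fat meal. There slc9a3.1 had -1.28 after the high-fat meal in the authors' deposited table (adjusted p = 0.13). The list medians in the authors' deposited table were 0.26, -0.10, 0.70 and -0.04.

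Among 21 genes of amino acid sensing by mTORC1, 0 were called outside 1 h after the high-fat meal, against 0.444% to 4.06% of all genes. At 1 h after the high-fat meal the list showed 3 falls and 0 rises. Of all genes 1.77% were called lower at 1 h after that meal and 1.96% higher. The authors' deposited table gave -1.85 for sesn1, whose relatives bind leucine, -1.44 for tsc1b, of the complex that restrains mTORC1, and -1.18 for flcn, an activator of the Rag proteins. Their adjusted p-values there were 0.00012, 0.0081 and 0.0497 in that order, the last close to the threshold. Of 20 genes of ATF4 and its amino acid response, atf3 rose by 1.62 at 1 h after the high-fat meal. Its adjusted p in the authors' deposited table was 0.0013. With low-fat food ddit4 rose by 1.33 and aldh1l2 by 1.41 at 1 h in the authors' deposited table (adjusted p-values of 0.014 and 0.011). Of all genes 2.72% were called higher in that comparison. At 4 h with high-fat food, the authors' deposited table gave atf5a 1.56 and ddit4 -1.46 (adjusted p-values of 0.0066 and 0.012). There 0.741% of all genes were called higher and 0.616% lower. The asparagine synthetase gene asns had values between 0.34 and 0.47 and passed in none of the 4 comparisons of the authors' deposited table. Of 4 carriers of other families 0 were called in any comparison, against 0.444% to 4.06% of all genes. Among them slc16a10, an exporter of aromatic amino acids, had 0.15, -0.88, 0.79 and 0.13 in the authors' deposited table.

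Markers of the dissected organs were well read: 7 enterocyte markers had averages of 6.10 to 11.01 log2 CPM, 6 hepatocyte markers 8.14 to 10.7, 5 exocrine pancreas markers 11.4 to 13.4 and 4 endocrine pancreas markers 3.29 to 5.48. Enterocyte markers, which include slc15a1b, had medians of 0.59, 0.54, 0.44 and 0.24 in the authors' deposited table, with fabp1b.1 called higher 4 h past the high-fat meal. At that time, where slc15a1a fell, slc15a1b had -0.32 and the other 6 enterocyte markers, among them the genes apoa4, fabp1b.1 and fabp2 of lipid handling, lay above 0 in the authors' deposited table. The part of the number of enterocytes in the carriers' values was not tested. Skeletal muscle markers, of tissue outside the dissected organs, had averages of 4.23 to 8.80 log2 CPM. At 4 h with high-fat food they had a median of -1.51 in the authors' deposited table, with 5 of 8 called lower and all 8 below 0, and -0.76, 0.23 and -0.32 in the other comparisons. Of all genes 0.616% were called lower at 4 h after the high-fat meal. The part of muscle RNA in the carriers' values was not tested. Lysosome rich enterocyte markers had medians of 0.89, 1.00, -0.13 and -0.33 in the authors' deposited table. Of these cubn was called higher after the high-fat meal, with 1.52 at 1 h and 1.85 at 4 h (adjusted p-values of 0.0038 and 0.00024). Also called higher at 4 h after that meal was fabp6, with 1.47 (adjusted p = 0.0097). Of all genes 1.96% and 0.741% were called higher at these times. Medians of hepatocyte markers lay between -0.28 and 0.22, of exocrine pancreas between -0.12 and 0.08 and of endocrine pancreas between 0.0045 and 0.17. Nervous tissue had medians between -0.63 and 0.13, blood between -0.55 and 0.48 and leukocytes between -0.35 and -0.01 in the authors' deposited table. Of the leukocyte markers mpx had 2.17 in larvae 4 h past the high-fat meal and -3.29 in those 1 h past the low-fat meal in the authors' deposited table, both called. Of all genes 0.741% were called higher in the first and 1.34% lower in the second of these comparisons. Among the 4 leukocyte markers mpx alone was called: in these comparisons lyz had 0.16 and 0.37, and coro1a -0.21 and -0.18, in the authors' deposited table. Kidney tubule markers, some of which the gut also expresses, had medians of 0.63, -0.25, 0.56 and 0.20 in the authors' deposited table, with slc20a1a and slc26a1 called higher at 1 h after the low-fat meal. Of all genes 2.72% were called higher in that comparison.

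The level filter left out 23 symbols of the same families, and 0 of them were called in any comparison of the authors' deposited table. Just inside it stood slc1a9 at 0.52 and slc7a6 at 1.16 log2 CPM, and just outside it slc6a6a at -0.44 and slc7a4 at -0.73. The taurine carrier copy slc6a6a had -1.39 at 1 h after the high-fat meal in the authors' deposited table (adjusted p = 0.059).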

How the data were processed

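RNA of pooled digestive organs was sequenced in 18 samples, as poly(A) libraries and reads of 50 bases, 6 samples per lane, per the labels' protocols. Alignment used TopHat2, the tests used edgeR and the build was Zv9, per the submitters' processing notes. Their versions, like the counting tool, were not given in the sources used here. What the authors deposited is a table of 56754 transcripts. Per the file headers it holds, for each of 4 comparisons, the log2 fold change, its p-value and the adjusted p-value, beside the average log2 CPM, and 0 columns of single samples. As checked on the table, Benjamini-Hochberg adjustment of its p-values over every row gives the adjusted ones, and an adjusted p under 0.05 gives the authors' marks. Starts were taken as counted from 0, since 4 rows start at 0, and are given from 1.

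Each symbol was represented by its most read transcript. Standard errors were taken as the median ratio of fold change to normal score of p by expression level, for fold changes above 0.5 in size. Differences between meals add both variances, those between times use their mean, and p-values were adjusted over 12828 genes. The code of the normal test was run on simulated data, which does not test its assumptions. Analyses used Python 3.11.15 with scipy 1.17.1 and pandas 2.3.3.

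The members and all lists (9 role, 6 pathway and 10 marker lists) were chosen with earlier results of these data known. Named genes are all called members, 14 carriers with a known place in absorption (11 measured), the 5 most read, and per comparison the 3 highest and the 3 lowest of at least 1 log2 CPM; of pathway genes, those called, with asns, slc16a10 and the uncalled values of slc9a3.1 and slc9a3.2 added after values were seen. Likewise slc15a2, slc15a4, slc6a14, slc7a10a, slc7a6, slc43a1a, the cationic, SLC1 and SLC6 genes, slc38a2, slc38a9 and slc7a6os were named to account for every role. Of the members 45 have a symbol that RefSeq (GRCz12tu) uses, 44 of them on the same chromosome. No sequence was used here.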

Additional observations from a re-analysis of the deposited data

Results flagged for a closer look

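A change between 1 h and 4 h after a meal, tested directly with the approximate normal test over all genes, passed for 7 carriers, of which slc6a19a and slc15a1a passed after both meals. Of the members 10.4% passed after the high-fat meal, against 6.5% of all genes, and 8.33% after the low-fat meal, against 2.02%. After the high-fat meal the differences, 4 h minus 1 h on the log2 scale, were -1.66 for slc15a1a, -1.56 for slc6a8, -1.36 for slc6a19a, -1.08 for slc43a2b and 1.16 for slc6a13. After the low-fat meal they were -1.67 for slc43a3b, -1.50 for slc6a19a, -1.26 for slc38a5a and -1.25 for slc15a1a. The call of slc43a2b is the closest to the threshold, with an adjusted p of 0.042. Neither time was called against unfed larvae for slc43a2b and slc6a19a with the high-fat meal and for slc15a1a with the low-fat meal. These tests use the shared error and not each gene's own spread between samples. Without unfed larvae of each time, time after the meal cannot be told apart from the hour of sampling.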

How the results depend on the processing

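The 8 counts of called members kept their value within 1.5 times with the median over a symbol's transcripts, no level filter and a filter at 2 log2 CPM. The 4 counts against unfed larvae also did with adjustment over 1 row per symbol, without joined symbols and with centring on the median of all genes, and the 4 counts of differences with 1 standard error per comparison. Each of the 7 calls against unfed larvae stayed past the threshold under the 6 alternatives run for them, but part of this was settled beforehand. The changed level filters and the removal of joined symbols reuse the deposited adjusted p. All called members lie above 2 log2 CPM and 0 joined symbols are among the members, so these settings could not alter a call. The median over transcripts could alter only slc38a5a and slc6a13, since the other called members have 1 transcript above the level filter. For 4 h minus 1 h after the high-fat meal the count was 5, and lay between 4 and 6: without a level filter slc43a2b was lost (adjusted p = 0.053), and with 1 standard error slc43a3b was added. Leaving out single replicates was not run, because no value of a single sample was analysed here. No paired analysis was possible because the table holds comparisons and no columns of samples. The smallest change called in any gene lay between 1.16 and 1.42 in the 4 comparisons of the authors' deposited table.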

Other observations

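A pair of rows that carry other names in the table are listed by RefSeq as older names of carriers of these families and were not members. One is zgc:162925, now slc6a16b, with an average of 4.00 log2 CPM and fold changes of 0.56 and 0.72 at 1 h after the high-fat and the low-fat meal in the authors' deposited table (adjusted p-values of 0.69 and 0.41). At 4 h zgc:162925 had -0.02 and -0.06 in the authors' deposited table. The other is zgc:158225, now slc6a7, a proline carrier of the brain in mammals, whose fold changes lay between 0.09 and 0.51 in the authors' deposited table and were not called.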
